A study of Bos indicus with 9 samples.

Results

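The stretch of chromosome 6 from 37 to 37.8 Mb of ARS-UCD1.2, known as the locus of NCAPG and LCORL, was examined in the deposited consensus peaks of hypothalamus, muscle, and liver. Every peak that overlaps this window of 800 kb was taken as a member, whatever its strength. This gave 43 peaks of 140923 in all, of which 32 were called in hypothalamus, 6 in muscle, and 5 in liver. In ATAC-seq, a transposase inserts sequencing adapters wherever it can reach the DNA, so a peak marks a region of open chromatin. The tissues came from the same 3 unrelated Brahman heifers (Bos indicus), all past puberty and alike in age and weight, with 1 library per tissue and heifer and 9 libraries in all. The peak caller Genrich combined the heifers of a tissue into 1 list, so there is no value for a single heifer, no spread between heifers, and no test between tissues. The nuclei came from whole frozen tissue, and the number of cells with an open region and the openness in each cell cannot be told apart.

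NCAPG is a subunit of condensin I, the complex that compacts chromosomes before a cell divides. LCORL is related to the nuclear receptor corepressor LCOR, and a long form of its protein binds the Polycomb complex PRC2, which deposits a repressive histone mark. The region around both genes is known in cattle for its association with carcass weight and stature, and the same genes are linked to body size in other mammals. In the RefSeq gene order of the Tharparkar assembly NIAB-ARS_B.indTharparkar_mat_pri_1.0, LCORL comes at the end of a run that goes from MEPE and IBSP, which encode proteins of the bone matrix, through LAP3, MED28, FAM184B, NCAPG, and DCAF16. LAP3 is an aminopeptidase, MED28 a subunit of the Mediator complex, and DCAF16 a substrate receptor of a ubiquitin ligase. SLIT2, an axon guidance gene, is the next protein-coding gene after LCORL in that order. On ARS-UCD1.2, the build of the peaks, only MEPE and LCORL could be placed here, from a partial copy of the study's annotation tables. Peaks are therefore assigned to LCORL where they lie on it, and no peak is assigned to NCAPG.

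The window held more peaks per Mb than chromosome 6 as a whole in every tissue, though in muscle not when widened by 100 kb at each end (6 peaks per Mb). In hypothalamus it held 40.0 peaks per Mb, against 17.8 on chromosome 6 and 27.1 on chromosomes 1 to 29 and X. In muscle it held 7.50 per Mb, against 6.15 on chromosome 6 and 11.6 on all these chromosomes. In liver it held 6.25 per Mb, against 2.32 and 4.59. Muscle was thus the tissue with fewer peaks here than on the chromosomes at large, and hypothalamus and liver had more. Divided into 3267 windows of the same length, these chromosomes had a median of 16 hypothalamus peaks, 5 muscle peaks, and 2 liver peaks per window. At least as many peaks as here were found in 24.9% of windows in hypothalamus, 47.4% in muscle, and 23.9% in liver.

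**Figure D1:**
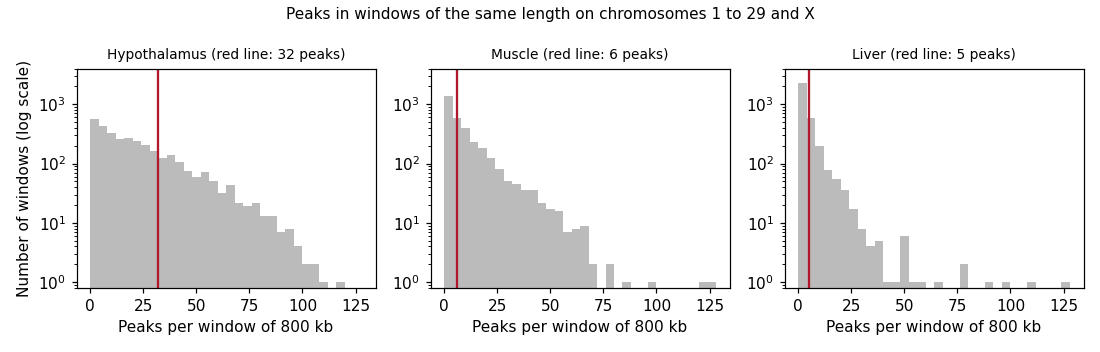
Number of windows of 800 kb (log scale) by the number of peaks they hold, on chromosomes 1 to 29 and X, with 1 panel per tissue. The red line marks the window with NCAPG and LCORL (32, 6, and 5 peaks), which lies above the median of 16, 5, and 2 but far from the highest counts of 116, 124, and 124.

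Peaks covered 34809 bp of the window in hypothalamus, 5376 bp in muscle, and 2568 bp in liver. This was 4.35%, 0.672%, and 0.321% of the window, against 2.32%, 0.781%, and 0.284% of chromosomes 1 to 29 and X. The lists differ in length, and the counts changed when this was evened out. With the strongest 12063 peaks on these chromosomes kept in each tissue, as many as liver has there, the window held 5 hypothalamus, 6 muscle, and 5 liver peaks, and the density in muscle was 1.63 times that on all these chromosomes instead of 0.646 times. With only summits of a −log10 p of at least 5 kept, it was 1.22 times.

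The peaks were not spread evenly. Of the hypothalamus peaks, 29 lay between the genes MEPE and LCORL, 3 lay on LCORL, and 0 lay beyond the LCORL start. Muscle had 5 peaks between the genes and 1 on LCORL, and liver had 4 and 1. From 37558396 to the end of the window, 30.2% of its length, no list held a peak. At the other end, the first hypothalamus peak of the window, from 37028930 to 37029378, had a summit −log10 p of 4.24, lower than 5.75 for the last peak before the window. The next hypothalamus peak followed 282 kb after the last one of the window, a distance reached by 1362 of 70998 gaps between neighboring hypothalamus peaks on the chromosomes. The next peak in muscle and liver was farther off, after 643 kb, a distance reached by 764 of 30453 gaps in muscle and 992 of 12033 in liver.

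**Figure D2:**
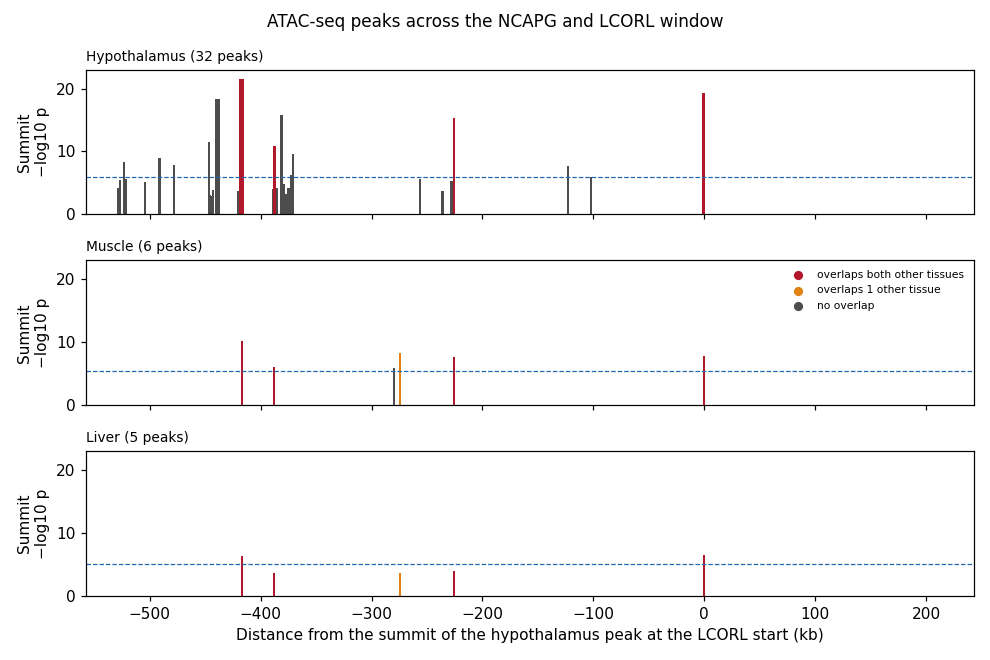
Peaks of the window in each tissue, drawn at their place relative to the hypothalamus summit at the LCORL start (kb) and as high as their summit −log10 p, with bars drawn at least 2 kb wide. Colors show overlap with the other tissues and dashed lines the median of each list. Of the 32 hypothalamus peaks, 25 have their summit at −371 kb or further left, 4 sites are open in all tissues, and nothing lies to the right of that start.

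All 3 tissues shared 4 regions. A region counts as shared where peaks of different lists overlap by at least 1 bp. Each peak has a −log10 p at its summit, which Genrich combined from the heifers without a correction for the number of positions tested. It also has an area under the curve (AUC) of that measure above the calling threshold. Neither value is scaled between lists, so the percentile of a peak within its own list is given beside it.

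The region at the LCORL start runs in common from 37556637 to 37557534. In the annotation tables of the study, LCORL is read toward lower coordinates, and the start of its transcript lies inside the peak of every tissue. The hypothalamus peak runs from 37555521 to 37558395 (2875 bp) and has a summit −log10 p of 19.3, at percentile 96.9 of its list, with an AUC of 18582. The muscle peak runs from 37556036 to 37557567 (1532 bp) with a summit of 7.74, at percentile 79.2. The liver peak runs from 37556637 to 37557534 (898 bp) with a summit of 6.57, at percentile 73.8, the highest liver summit of the window. The hypothalamus and liver summits fell on the same base, 37557354, and the muscle summit lay 316 bp further into the gene, at 37557038.

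The shared region farthest to the left, in common from 37140376 to 37141012 between MEPE and LCORL, had the highest summits in hypothalamus and muscle, while in liver the LCORL start had the higher one. By AUC the LCORL start was above it in every tissue (17406 here in hypothalamus, 3437 against 3668 in muscle, and 1526 against 1582 in liver). Its hypothalamus peak runs from 37138260 to 37142074 (3815 bp) and has the highest summit −log10 p of the window, 21.6, at percentile 98.7. Its muscle peak, from 37140349 to 37141240, also had the highest summit of its tissue, with 10.2 at percentile 92.1. In liver, where the peak runs from 37140376 to 37141012, the summit was 6.39 at percentile 71.8. The summits of hypothalamus and muscle lay 4 bp apart, and that of liver lay 73 bp from the muscle summit.

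Next to it, a region in common from 37169131 to 37169594 had the lowest summit of the shared sites in every tissue. By AUC it was lowest in hypothalamus and muscle, and in liver the site at 37331823 was lower (302 against 312). Its summit −log10 p was 10.9 in hypothalamus (percentile 80.1), 6.13 in muscle (62.0), and 3.66 in liver (9.49). Here the muscle and liver summits lay 4 bp apart, at 37169453 and 37169449, and the hypothalamus summit lay 320 bp from the muscle summit, at 37169133.

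The remaining shared region lies in common from 37331823 to 37332074, between MEPE and LCORL. Its summit −log10 p was 15.4 in hypothalamus (percentile 91.0), 7.66 in muscle (78.6), and 4.03 in liver (21.0). The summits of all 3 tissues fell within 25 bp of each other, at 37331907, 37331890, and 37331915. The liver peak there was the shortest of the liver peaks in the window, at 252 bp, against 848 bp in muscle and 1474 bp in hypothalamus.

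**Figure D3:**
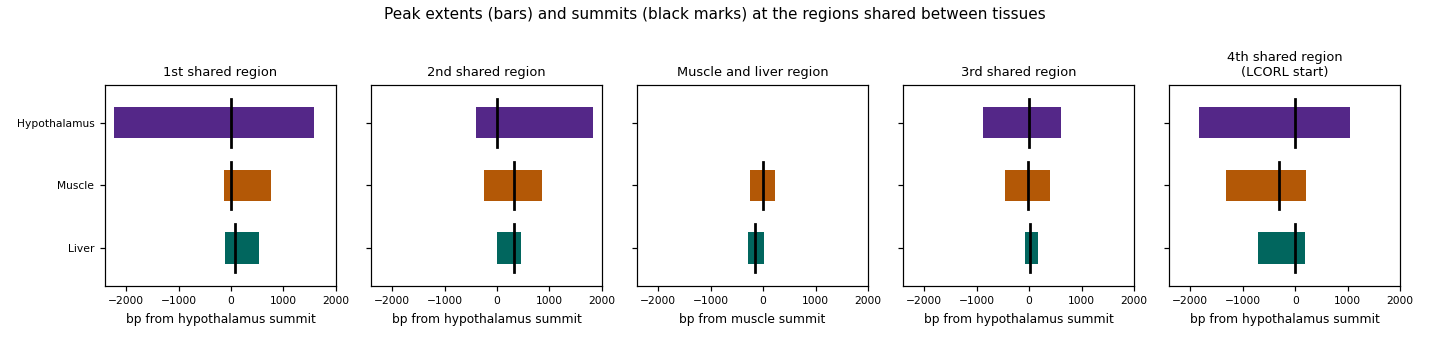
Extent of each peak (bar) and its summit (black mark) at the 4 regions open in all tissues and at the region open in muscle and liver, from left to right along the chromosome, in bp from the hypothalamus summit (from the muscle summit in the middle panel). Muscle and liver peaks lie inside the hypothalamus peak at all 4 shared regions, and the summits are within 100 bp at the 1st and 3rd of them.

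At all 4 regions the summit −log10 p was highest in hypothalamus and lowest in liver, as at 86.6% of the 7493 loci on chromosomes 1 to 29 and X where 1 peak of each tissue overlaps. The hypothalamus peak was the longest and the liver peak the shortest at all 4, against 80.1% of these loci. The percentile within the whole list fell from hypothalamus through muscle to liver at all 4, against 83.3% of these loci. Chromosomes 1 to 29 and X hold 12063 of the 22291 liver peaks. Ranked among peaks on these chromosomes alone, liver stood above muscle at the LCORL start (88.3 against 82.7). The muscle and liver peaks lay inside the hypothalamus peak at all 4 regions, against 85.0% of these loci. The 3 summits fell within 100 bp at 2 of the 4 regions, against 74.9% of these loci, where the median distance between the outermost summits was 50 bp. Each order was thus also the usual one over all such loci. Ranked among the one-to-one loci, the LCORL start stood by summit −log10 p at percentile 79.9 in hypothalamus, 51.9 in muscle, and 85.4 in liver. In the same order of tissues, the leftmost region stood at percentiles 91.5, 85.4, and 82.8, the region next to it at 18.4, 25.3, and 7.61, and the remaining one at 47.4, 50.7, and 20.3.

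Muscle and liver shared 1 region that hypothalamus lacked, in common from 37282787 to 37283057. The muscle peak, from 37282787 to 37283257 (471 bp), had the next highest muscle summit of the window, a −log10 p of 8.36, at percentile 83.9. The liver peak, from 37282741 to 37283057 (317 bp), was weak, with 3.67 at percentile 9.58. Their summits lay 147 bp apart, and the nearest hypothalamus peak lay 17606 bp from the muscle peak. Overlap with liver and not hypothalamus was found for 2.95% of muscle peaks on the chromosomes, and overlap with muscle and not hypothalamus for 7.13% of liver peaks. A muscle peak from 37277419 to 37277944 had no overlap at all and the lowest summit of the 6 in muscle, 5.83 at percentile 57.8. Both lie in the longest gap between 2 hypothalamus peaks of the window, the 114 kb from 37187168 to 37300863.

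All 5 liver peaks overlapped a muscle peak (Wilson 95% interval 56.6 to 100%, counting error only), against 86.4% of liver peaks on chromosomes 1 to 29 and X. Of these, 4 also overlapped a hypothalamus peak and so both other tissues, against 85.1% and 79.3% of the list. No liver peak of the window was without overlap or overlapped hypothalamus alone, classes with 7.78% and 5.82% of the list, and 5 peaks allow an upper limit of 43.4% for each. In muscle, 5 of 6 peaks overlapped a liver peak (83.3%, 43.6 to 97.0%), against 33.4% of the list. Overlap with hypothalamus was found for 4 of 6, against 61.0%, and all 4 also overlapped liver, against 30.4% of the list for overlap with both. Muscle peaks that overlap hypothalamus and not liver, 30.6% of the list, were not found (0 of 6, upper limit 39.0%), and 1 of 6 had no overlap, against 36.0%. In hypothalamus, 4 of 32 peaks overlapped both other tissues (12.5%), against 12.9% of the list. Overlap with muscle at all was found for 24.3% of the list and with liver for 13.8%, and the same 4 peaks make up both in the window. The other 28 had no overlap (87.5%, 71.9 to 95%), against 74.8%. No hypothalamus peak overlapped muscle alone (0 of 32, upper limit 10.7%), a class that holds 11.4% of the hypothalamus peaks on the chromosomes, and none overlapped liver alone, against 0.893%. The intervals and upper limits take each peak as an independent draw, which neighbors in 1 window may not be. With only peaks of a summit −log10 p of at least 5 kept, 2 of the 4 regions remained shared by all tissues, the leftmost one and the LCORL start, since 3 liver peaks are below this limit. In that case 2 of 6 muscle peaks overlapped a liver peak, against 27.0% of muscle peaks on the chromosomes under the same limit, and 15 of 19 hypothalamus peaks had no overlap, against 76.5%. With equal numbers of peaks in each list, 2 of 5 hypothalamus peaks had none, against 36.8%, and 3 of the 4 regions remained shared by all tissues.

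By summit, the hypothalamus-only peaks of the window were much like their kind as a whole, and a few ranked high. The 28 peaks with no overlap had a median summit −log10 p of 5.21 (range 2.99 to 18.3) and a median length of 618 bp, close to the median of 5.35 and above that of 475 bp over all 53103 hypothalamus-only peaks on the chromosomes. The 4 shared peaks had a median of 17.4 (range 10.9 to 21.6) and 2553 bp, against 15.6 and 1717 bp for all hypothalamus peaks shared with both tissues.

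The peaks named next are the highest summits of the 28 without overlap. Any set of that size has its highest members, so their ranks are a description only. The peak from 37116191 to 37121135 had the highest summit of them. It is the longest peak of the window, at 4945 bp, and has its largest AUC, 18636, with a summit −log10 p of 18.3. Only 50 of the 53103 hypothalamus-only peaks had a larger AUC and 360 a higher summit. It lies to the left of the leftmost shared peak, in the same dense run. The hypothalamus-only peak from 37175264 to 37177669 (2406 bp) had a summit of 15.7, at percentile 97.9 of hypothalamus-only peaks, and an AUC of 8482. The next in strength, from 37110242 to 37111587, had 11.4, at percentile 92.6.

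**Figure D4:**
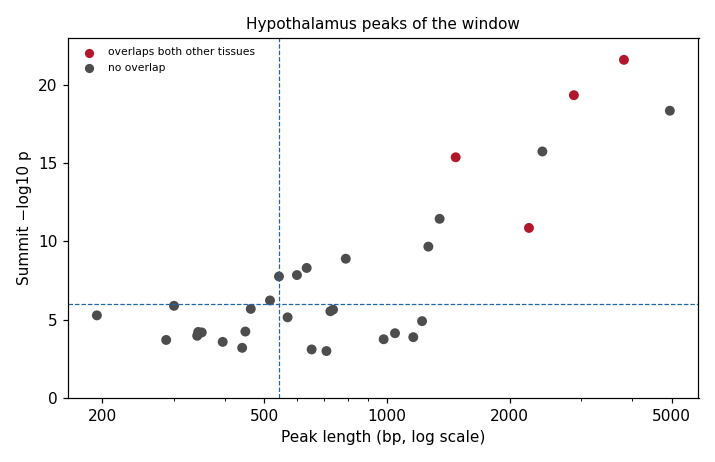
Summit −log10 p against length (bp, log scale) of the 32 hypothalamus peaks, with dashed lines at the medians of the hypothalamus list (5.99 and 543 bp). The 5 highest summits belong to 3 of the 4 shared peaks (red) and 2 peaks without overlap (gray), all at least 1474 bp long, and most of the others lie below 9.

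The strongest hypothalamus-only peaks belong to 2 dense runs, described after their values were seen and separated where neighboring hypothalamus peaks are over 20 kb apart. The run from 37110242 to 37142074 holds 7 peaks and the run from 37168263 to 37187167 holds 11, among them 1 shared peak each. Together with 1 run of 7 hypothalamus-only peaks from 37028930 to 37079454, they hold 25 of the 32 peaks. Peaks covered 42.8% of the first dense run and 55.8% of the next one, against 8.38% of the leftmost run. Each run starts and ends on a peak, which raises its coverage, and the coverage of such runs elsewhere is not given here. Between their strong peaks the dense runs held weak ones, with median summits of 3.88 and 4.21 over the runs. The lowest summit −log10 p of the window, 2.99 from 37112898 to 37113607, is close to the list's minimum of 2.86.

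On LCORL itself, hypothalamus had 2 peaks apart from the one at its start, and muscle and liver had 0. The peak from 37434226 to 37434768 (543 bp) had a summit −log10 p of 7.76 at percentile 66.3. The peak from 37454692 to 37454991 (300 bp) had 5.88 at percentile 48.8. Neither overlapped a peak of another tissue.

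Ranked within their lists, the members differed between tissues. All 6 muscle peaks lay above the median of their list, with percentiles from 57.8 to 92.1 and a median of 78.9. The hypothalamus peaks ranged from 0.0478 to 98.7 with a median of 44.9, and 13 of 32 lay above the median of the list. The liver peaks ranged from 9.49 to 73.8 with a median of 21.0, and 2 of 5 lay above the median of the list. With peaks ranked by AUC, the medians were 76.9 in muscle, 45.9 in hypothalamus, and 22.3 in liver. Ranked by AUC per bp of peak they were 70.2, 38.8, and 36.5, so that liver stood near hypothalamus. Ranked by summit among peaks on chromosomes 1 to 29 and X, the liver median was 29.8.

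**Figure D5:**
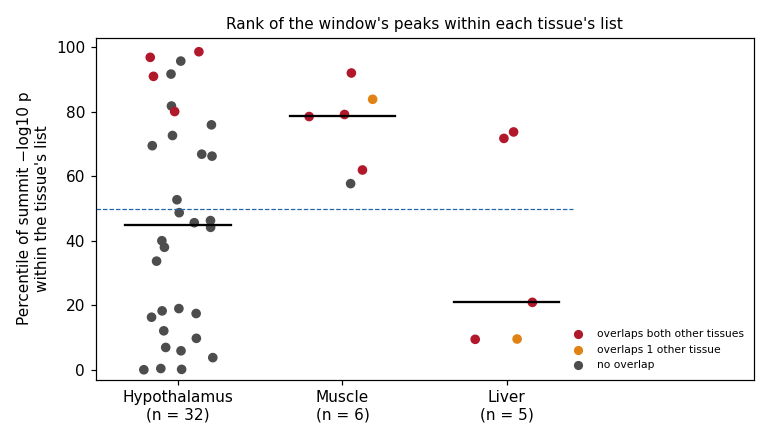
Percentile of the summit −log10 p of each peak of the window within the whole list of its tissue, with black lines at the medians (44.9, 78.9, and 21.0) and a dashed line at 50. All 6 muscle peaks lie above 50, and 3 of the 5 liver peaks lie below 25.

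The study's annotation tables name the gene nearest to each called peak, so a gene could be placed here only through a peak annotated to it. A peak at the start of a placed gene is thus partly set by how the gene was placed. Of 8 genes of condensin I and II, only SMC4, an ATPase shared by both complexes, could be placed on the build here. It had a peak within 1 kb of its start in all tissues, as LCORL did. Its summit −log10 p was 18.6 in hypothalamus (percentile 96.1), 8.11 in muscle (82.2), and 5.28 in liver (54.6). Of 14 genes of PRC2 and its LCOR partners, EZH2, MTF2, and LCORL could be placed. MTF2, a PRC2 accessory protein, had a peak within 1 kb of its start in all tissues (15.8, 6.67, and 4.82), and EZH2, the methyltransferase of PRC2, had none within 1 kb in any tissue and a hypothalamus peak within 3 kb. The share of all genes with a peak at their start is not given here. Whether such peaks are more common among the genes of these lists than among other genes was not tested. None of 18 marker genes of liver, muscle, and nervous tissue could be placed from that partial copy, so the tissue labels were not checked against markers here.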

How the data were processed

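ATAC-seq libraries were made from frozen hypothalamus, muscle, and liver of 3 heifers. With HISAT2, the authors placed the reads on ARS-UCD1.2, several alignments per read being allowed. Peaks were called with Genrich 0.6.1 (version from the submitters' processing notes), with PCR duplicates and mitochondrial reads left out and the p values of the heifers combined by Fisher's method. The deposited lists give for each peak a signal value (AUC), the −log10 p at the summit, a score of the peak caller, and positions. The files have no header and were read in narrowPeak order. The score and the q column (not filled) were not used. No list gives read counts, so the depth behind the value of a single peak is unknown, and the peak caller adds a read that maps to several sites in part at each. The study reports mapping statistics per sample, which were not used here.

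Starts, counted from 0 in the files, are printed from 1. Sorted lists were intersected at 1 bp with bedtools 2.31.1. Percentiles are the share of the whole list with a lower value, ties counted in part. Chromosome lengths were taken as the highest peak end. Code used python 3.11.15, numpy 2.4.6, pandas 2.3.3, scipy 1.17.1, and matplotlib 3.10.9, and was tested on simulated data. Gene starts were taken, for the join only, from a shortened copy of the study's annotation tables, so a gene not placed here may be in the whole tables, and gene order from RefSeq (Tharparkar assembly). Genome sequence was not used here. Peaks were named by rule: every shared region, the 3 highest summits per tissue, and peaks at gene starts and window ends; the runs, the hypothalamus peaks on LCORL, and other peaks named were chosen after their values were seen. Members and lists were chosen with earlier results of these data known. Alternatives were a stricter summit, equal numbers of peaks, window limits, overlap rules, ranking by AUC, and the distance to a gene start.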

Additional observations from a re-analysis of the deposited data

How the results depend on the processing

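Of 112 recomputed values for 31 results, 96 stayed within 1.5 times the value given, or, for median percentiles, within a binomial 95% interval of the median over peaks, and 16 did not. In muscle and liver that interval spans all peaks of the window, so it says nothing about those medians, though they count among the 96. The liver median ran from 21.0 to 36.5 over the rankings. With equal numbers of peaks, liver keeps all 12063 of its peaks on chromosomes 1 to 29 and X. Its own peak count, density, coverage, and peaks at gene starts therefore could not change under that setting, yet they also count among the 96. When summits under a −log10 p of 5 were left out, the window held 19 hypothalamus peaks, of which 15 had no overlap, and 2 liver peaks, which covered 1535 bp. Muscle then had 2 peaks with no overlap, 2 peaks remained shared between liver and each other tissue, 2 regions were covered in all tissues, the density of muscle peaks was 1.22 times that on chromosomes 1 to 29 and X, and 1 of the 3 placed genes of the PRC2 and LCOR list, LCORL, had a liver peak at its start. With equal numbers of peaks, hypothalamus had 5 peaks covering 15515 bp, 2 of them without overlap, and the muscle density was 1.63 times that of the chromosomes. Fewer peaks enter under both settings. The other limits of the window, overlap of at least 50% of the shorter peak, a peak within 1 kb counted as shared, and a distance of 3 kb to a gene start moved no count beyond 1.5 times; at 3 kb, EZH2 gained a hypothalamus peak and the list counted 3. Single peaks moved by 0.00941 to 18.9 percentile points when ranked by AUC, by AUC per bp, or among chromosomes alone. The tissue marker genes were not recomputed, since none could be placed. No paired analysis was possible because each list pools its heifers, and no heifer could be left out for the same reason.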

Other observations

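Outside the window, the first peak to the right in both muscle and liver was the same short site, from 38200872 to 38201126 on chromosome 6 of ARS-UCD1.2. Its summit −log10 p was 15.6 in muscle, at percentile 98.5 of the list, and 14.9 in liver, at percentile 96.8, with the summit at 38200987 in both. Both values exceed every muscle and liver peak of the window, where the highest were 10.2 and 6.57. A hypothalamus peak from 38200872 to 38201129 lies on the same site and has the same first base. Its summit was 15.1, at percentile 90.4 of its list, and below the muscle summit, unlike at the 4 shared regions of the window. The site has the same first and last base in muscle and liver, which was not the case at any shared region of the window. Over the chromosomes, the summit was highest in hypothalamus and lowest in liver at 86.6% of the 7493 loci with a single overlapping peak per tissue. The remaining loci also depart from that order, as this site does. How often muscle and liver peaks have the same ends at such loci was not tested. Whether the site is unusual is therefore not known. To the left, the last peaks before the window were from 36998802 to 36999165 in hypothalamus (5.75), from 36687883 to 36688433 in muscle (4.51), and from 36672168 to 36672491 in liver (4.15).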
